A study of Mus musculus with 143 samples.

Results

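Expression was examined in MBT2 tumours of mice given muDX400, which blocks PD-1, an inhibitory receptor of T cells, beside MBT2 tumours of mice given a mouse IgG1 isotype control. MBT2 is a mouse bladder carcinoma line. The libraries were chosen by title, 5 for MBT2 with muDX400 and 5 for MBT2 with the isotype antibody, and were matched to columns of the deposited table through the sample numbers in their descriptions. They are 10 of the 143 libraries of a series on 11 tumour lines. In both groups, cells were injected under the skin of the right lower flank, antibody was given in 2 doses on days 11 and 15 after implantation, and the tumour was excised and frozen on day 19, which the labels call 8 days. Total RNA was depleted of ribosomal RNA and sequenced as 50-base read pairs. The labels place MBT2 in the High response class of the line as a whole and give no response per mouse. They give no strain, age or sex of the host, no antibody dose and no genotype beyond the line. The protocol describes a single injection per mouse, so each library was taken as the tumour of a separate mouse. In fits of these 10 libraries, p-values measure the spread between these tumours. In fits that include other lines, they rest on a spread per gene shared over all lines.

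PD-1 sits on activated T cells and restrains signalling from the T-cell receptor when it meets its ligands PD-L1 and PD-L2. Interferon-gamma, made by T and natural killer cells, acts through the kinases Jak1 and Jak2 on tumour, stromal and immune cells alike. Its targets include Irf1, Ciita, the PD-1 ligands, antigen presentation genes, chemokines that attract T cells, and several families of defence GTPases.

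Values are FPKM, fragments scaled to transcript length and to library depth, as deposited by the authors, and differences are muDX400 minus isotype on the log2(FPKM + 1) scale, on which the change of low genes appears smaller than it is. Estimated depth was 20.1 to 22.4 M fragments in muDX400 libraries and 18.4 to 23.3 M in isotype libraries. The mitochondrial share of all FPKM was 3.74 to 4.27% in muDX400 libraries and 4.17 to 4.64% in isotype libraries, ranges that overlap slightly. No pair of replicates was a duplicate, since the 20 pairs differed by at least 2.76 times the variance of counting alone. Of the muDX400 libraries, replicate 3 stood nearest to the controls. Its correlation across the genes tested was 0.974 to 0.987 with other muDX400 libraries and 0.985 to 0.993 with isotype libraries, and counts of list members are therefore given with and without it. Of 17 urothelial markers, 4 were measured well enough to be tested, and 10 stayed under 1 FPKM in every library, among them the uroplakins Upk1a, Upk1b, Upk2, Upk3a and Upk3b. Krt8, a keratin, measured 52.5, 52.1, 59.8, 69.1 and 62.0 FPKM in muDX400 tumours 1 to 5 and 60.2, 56.2, 63.5, 60.9 and 68.8 FPKM in isotype tumours 1 to 5. The mesenchymal genes Vim and Twist1 were present. Vim averaged 1731 ± 107 FPKM in muDX400 tumours and 1682 ± 58.2 FPKM in isotype tumours, and Twist1 averaged 50.0 ± 3.64 FPKM in muDX400 tumours and 48.5 ± 2.25 FPKM in isotype tumours (SD, n = 5 each). The bladder origin of the line was thus not visible in the defining markers of urothelium.

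No gene passed the threshold, an adjusted p under 0.05 in limma with Benjamini-Hochberg adjustment, out of 12541 tested (0.0%). The lowest adjusted p was 0.0510, a value shared by 355 genes, among them those given below with an adjusted p of 0.0510. The count of 0 thus lies close to the threshold for many genes at once. At an unadjusted p under 0.05, 1715 genes were higher in muDX400 tumours (13.7% of those tested) and 1882 were lower (15.0%). The 5 muDX400 values lay wholly above the 5 isotype values in 347 genes (2.77%) and wholly below them in 442 (3.52%). Without muDX400 replicate 3, 1305 genes were higher (10.5% of 12467) and 1290 lower (10.3%) at an adjusted p under 0.05. With a spread per gene shared over the 8-day libraries of all lines, 164 genes were higher (1.31%) and 58 lower (0.462%). Replicate 3 was picked out by its values, so the fit without it shows only how far the count rests on that tumour. Both fits are alternatives to the one that called no gene, and only the shared spread keeps all 10 libraries. The shared spread includes the CM3 isotype libraries described below as far from the rest of their line, and that fit was not repeated without them. For genes nearly absent from the other lines, the shared spread can be smaller than the spread between MBT2 tumours. All counts with the shared spread, including those per list, carry these limits. Counts below are at an unadjusted p under 0.05 unless stated, and are to be read against 13.7% and 15.0% of all genes tested, whose median difference was -0.02. Genes were tested if they reached 1 FPKM in at least 5 of the 10 libraries. Cd6, Pdcd1lg2, Icos, Ctla4 and Cd160 were under 1 FPKM in most isotype tumours and above it in every muDX400 tumour. They entered the test only through the group where they are high, and counts of higher members include them and may include others like them.

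All 3 genes of the PD-1 list were higher (median 1.43), and at an adjusted p under 0.05 all 3 were higher both without muDX400 replicate 3 and with the shared spread. Cd274, which encodes PD-L1, had the smallest p. Cd274 measured 92.4, 60.8, 17.7, 76.8 and 24.3 FPKM in muDX400 tumours 1 to 5, against 11.9, 11.96, 12.03, 10.5 and 15.2 FPKM in isotype tumours 1 to 5. The groups did not overlap, muDX400 tumours 1, 2 and 4 were far above the controls, and tumours 3 and 5 lay just above them. The difference was 1.81 ± 0.40 (SE, adjusted p = 0.0510 by limma). Pdcd1lg2, which encodes PD-L2, measured 6.86, 6.57, 1.21, 9.48 and 2.08 FPKM after muDX400 and 0.762, 1.49, 0.782, 0.524 and 1.52 FPKM in the controls, with tumour 3 inside the isotype range. Pdcd1, which encodes PD-1 itself, measured 31.8, 47.3, 16.6, 44.7 and 23.8 FPKM after muDX400, against 10.3, 16.1, 23.6, 13.8 and 8.25 FPKM in the controls. Tumour 3 again lay inside the isotype range, and isotype tumour 3 was the highest control. The Pdcd1 difference was 1.12 ± 0.31 (adjusted p = 0.0611 by limma), and an antibody that blocks the protein leaves this RNA measurable. In exact 2-sided permutation tests over every arrangement of the 10 libraries, p was 0.00794 for Cd274, the smallest it can reach, 0.0159 for Pdcd1 and 0.0873 for Cd8a, the coreceptor of cytotoxic T cells. Those 3 tests were run as a family and gave p = 0.0238 for Cd274 and Pdcd1 and 0.0873 for Cd8a after Benjamini-Hochberg adjustment over the permutation tests. In GRCm38, Cd274 spans chr19:29367455-29388095 (plus strand) and Pdcd1 spans chr1:94038305-94052553 (minus strand).

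**Figure D1:**
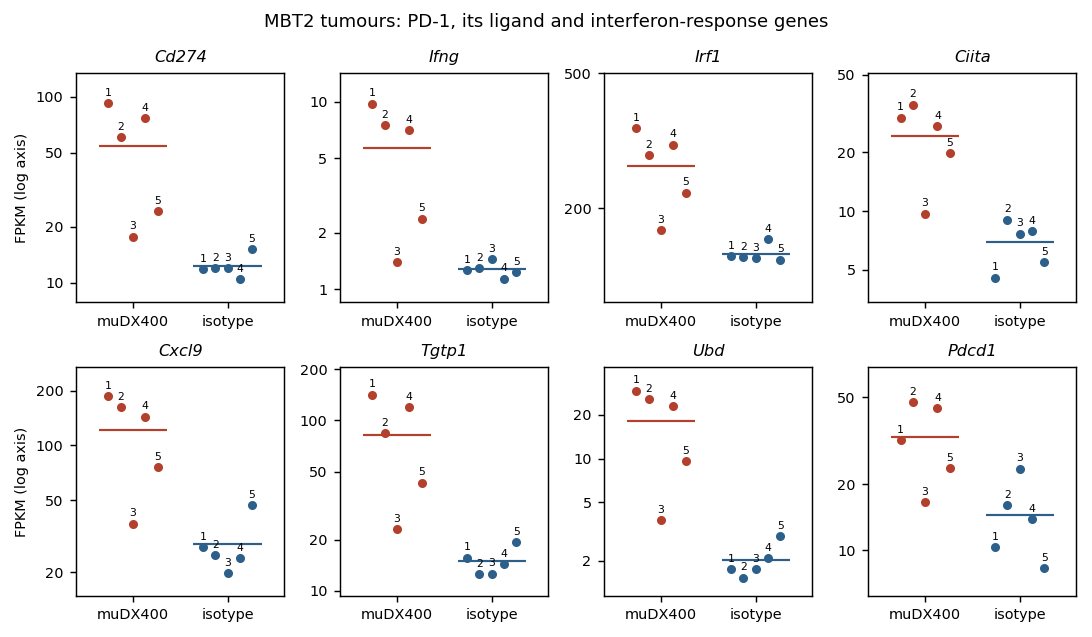
FPKM (log axis) of 8 genes in each MBT2 tumour, muDX400 left and isotype right, with replicate numbers beside the points and a line at each group's mean. Tumours 1, 2 and 4 are the highest after muDX400 in every panel and tumour 3 is the lowest, as in Cd274, at 17.7 FPKM in tumour 3 and 92.4 FPKM in tumour 1.

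T-cell genes were higher after muDX400. All 14 tested members of the T-cell receptor list were higher, with a median difference of 0.85, and 2 of them, Cd6 and Sh2d1a, did not overlap between groups. In a whole tumour, more T cells and more RNA per T cell cannot be told apart. Cd6, a surface receptor that modulates T-cell activation, measured 3.14, 5.55, 2.02, 3.54 and 2.26 FPKM after muDX400, against 0.760, 1.18, 0.806, 0.398 and 1.03 FPKM in the controls. Its difference was 1.19 ± 0.20, with the smallest p of the list (9.21e-05 unadjusted, adjusted p = 0.0510 by limma), but Cd6 met the filter only through the muDX400 group. Cd247, the zeta chain of the receptor complex, measured 11.1, 12.1, 3.86, 10.03 and 7.27 FPKM after muDX400 and 3.26, 4.60, 3.81, 4.96 and 2.43 FPKM in the controls, and here tumour 3 lay within the isotype range. Trbc1, a constant region of the receptor beta chain, measured 17.1, 21.7, 18.7, 26.3 and 14.6 FPKM after muDX400 and 5.39, 7.60, 3.17, 17.3 and 6.12 FPKM in the controls, where isotype tumour 4 overlapped the muDX400 group. Trbc1 and Trbc2 are near copies, and the split of reads between them is uncertain. The signalling kinases differed by 0.86 for Lck and 0.85 for Zap70. At an adjusted p under 0.05, all 14 members were higher without muDX400 replicate 3 and 4 of 14 with the shared spread.

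Of the 13 members of the CD4 and regulatory T-cell list, 7 were tested, and all 7 were higher (median 0.84). Ctla4, one of them, is counted again among the inhibitory receptors below. Past the adjusted threshold were 7 of 7 without muDX400 replicate 3 and 3 of 7 with the shared spread. Tnfrsf9, the costimulatory receptor 4-1BB, measured 26.6, 30.6, 21.7, 26.3 and 15.6 FPKM after muDX400, against 11.6, 14.3, 14.2, 11.2 and 12.8 FPKM in the controls, and the groups did not overlap. Icos, a costimulatory receptor of activated T cells, measured 3.92, 4.21, 1.599, 3.49 and 1.89 FPKM after muDX400 and 1.13, 0.773, 0.953, 0.785 and 1.77 FPKM in the controls. Among inhibitory receptors other than PD-1, 8 of 11 tested members were higher (median 0.70), with 8 past the adjusted threshold without muDX400 replicate 3 and 5 with the shared spread. Cd160 measured 2.38, 3.39, 1.70, 4.23 and 1.86 FPKM after muDX400 and 1.12, 1.38, 0.848, 0.897 and 0.875 FPKM in the controls, with no overlap. Btla, an inhibitory receptor of lymphocytes, also did not overlap, at 2.56, 4.51, 3.46, 2.92 and 3.14 FPKM after muDX400 and 1.88, 2.36, 1.56, 2.04 and 1.41 FPKM in the controls. Differences were 1.03 for Ctla4, 1.12 for Lag3, 0.93 for Tigit and 0.75 for Havcr2, which encodes TIM-3. Vsir, Cd244a and Lilrb4a had p of 0.0629, 0.0700 and 0.120.

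The cytotoxic list was divided. Of 20 tested members 12 were higher and none was lower, with a median of 0.53 and a span from -0.78 to 1.32. The adjusted threshold was passed by 10 members without muDX400 replicate 3 and by 2 with the shared spread. Prf1, which encodes the pore-forming protein perforin, measured 33.1, 24.2, 29.9, 29.9 and 19.6 FPKM after muDX400, against 16.8, 13.3, 13.3, 18.0 and 15.9 FPKM in the controls. These groups did not overlap, and tumour 3 was among the higher muDX400 tumours. Ctsw, a cathepsin of cytotoxic lymphocytes, likewise did not overlap, at 13.8, 15.97, 12.6, 13.2 and 14.3 FPKM after muDX400 and 8.54, 12.2, 9.71, 9.45 and 7.24 FPKM in the controls. Klrk1, the activating receptor NKG2D, measured 23.9, 26.6, 10.1, 19.8 and 13.01 FPKM after muDX400 and 8.72, 11.4, 8.404, 7.27 and 7.001 FPKM in the controls. Cd8a measured 26.5, 40.1, 12.5, 41.3 and 16.9 FPKM after muDX400 and 11.6, 19.0, 18.0, 13.7 and 7.76 FPKM in the controls, so that tumours 3 and 5 lay among the isotype values (difference 0.84 ± 0.33, adjusted p = 0.128 by limma). Eomes, a transcription factor of effector lymphocytes, measured 2.81, 3.06, 2.58, 1.76 and 2.63 FPKM after muDX400 and 1.49, 1.94, 1.71, 1.21 and 1.11 FPKM in the controls.

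Granzymes A to G did not follow the T-cell genes. Gzmd, picked after its values were seen, measured 64.1, 1.97, 143, 8.46 and 56.9 FPKM after muDX400, against 62.9, 40.1, 25.5, 41.5 and 75.1 FPKM in the controls. Its lowest values were in muDX400 tumours 2 and 4, where Cd8a was highest, and its highest value was in tumour 3. Gzmc was also lowest in tumours 2 and 4 and highest in tumour 3, at 35.7, 3.501, 82.3, 7.41 and 42.8 FPKM after muDX400 and 39.0, 31.8, 20.9, 40.4 and 55.2 FPKM in the controls. Ncr1, a receptor of natural killer cells picked likewise, measured 3.42, 1.54, 7.96, 1.55 and 7.11 FPKM after muDX400 and 5.01, 4.07, 2.23, 5.49 and 5.0 FPKM in the controls, with tumours 2 and 4 again lowest. Among the 5 tested natural killer cell genes, Ncr1 had the only negative difference, -0.18, so it does not stand for that list. The differences of Gzma, Gzmc, Gzmd, Gzme, Gzmf and Gzmg were negative, from -0.78 to -0.35, and each had an unadjusted p above 0.3. The direction for Gzmd turned to 0.02 without muDX400 replicate 2. Granzymes C to G are a family of close relatives in which fragments can be divided uncertainly. Gzmb, the main granzyme of activated cytotoxic cells, measured 42.7, 24.4, 37.1, 32.8 and 18.3 FPKM after muDX400 and 28.1, 19.7, 15.8, 27.8 and 37.6 FPKM in the controls, which overlapped throughout.

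In the list of interferon-gamma and its signalling chain, 13 of 16 tested members were higher and none was lower (median 0.73), while both receptor subunits and the kinase Jak1 did not pass. Ifng, picked after its values were seen, measured 9.79, 7.53, 1.39, 7.09 and 2.38 FPKM after muDX400, against 1.26, 1.30, 1.455, 1.14 and 1.24 FPKM in the controls. Isotype values stayed within a narrow range, tumours 1, 2 and 4 were several times higher, and tumour 3 lay within the controls. The receptor subunits Ifngr1 and Ifngr2 and the kinase Jak1 differed by 0.15, 0.07 and 0.08, with p of 0.113, 0.513 and 0.109. Irf1, a transcription factor induced by interferon-gamma, measured 345, 287, 173, 308 and 223 FPKM after muDX400 and 144, 144, 143, 162 and 142 FPKM in the controls. The groups did not overlap, and tumour 3 was the lowest after muDX400. Ciita, the transactivator of MHC class II genes, measured 30.1, 35.1, 9.72, 27.2 and 19.8 FPKM after muDX400, against 4.56, 9.06, 7.68, 7.89 and 5.47 FPKM in the controls (difference 1.597 ± 0.30, adjusted p = 0.0510 by limma). Batf2, a basic leucine zipper factor picked after its values were seen, also did not overlap, at 79.7, 55.9, 24.1, 61.2 and 34.7 FPKM after muDX400 and 19.8, 19.1, 18.4, 21.6 and 23.5 FPKM in the controls. Negative regulators were higher too, by 0.94 for Socs1 and 0.44 for Socs3. Of the 16 members, 12 passed the adjusted threshold without muDX400 replicate 3 and 3 with the shared spread.

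Promoter windows from RefSeq, 250 bases before to 50 after each annotated start on GRCm38.p6, show the sequence around genes of these lists. They are printed for the 4 genes with the smallest p among the interferon-gamma, MHC class II, chemokine and PD-1 lists that have an entry in the table, and for Tgtp1, which was added after its values were seen. Irf1 is shown for chr11:53769764-53770063 on the plus strand, Ccl8 for chr11:82114935-82115234 on the plus strand and Cxcl9 for chr5:92328030-92328329 on the minus strand. H2-Oa is shown for chr17:34092129-34092428 on the plus strand and Tgtp1 for chr11:48992197-48992496 on the minus strand. Capitals mark matches on either strand to TTCNNNGAA, the gamma-activated site, to the core of the interferon-stimulated response element, and to CCAAT, the box bound by NF-Y.
Irf1: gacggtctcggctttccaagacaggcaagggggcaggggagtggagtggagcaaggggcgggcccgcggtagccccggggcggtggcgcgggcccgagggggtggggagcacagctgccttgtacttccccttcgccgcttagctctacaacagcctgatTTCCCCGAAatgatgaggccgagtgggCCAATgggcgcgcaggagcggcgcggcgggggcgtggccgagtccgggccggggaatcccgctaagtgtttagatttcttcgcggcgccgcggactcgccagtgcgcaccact
Tgtp1: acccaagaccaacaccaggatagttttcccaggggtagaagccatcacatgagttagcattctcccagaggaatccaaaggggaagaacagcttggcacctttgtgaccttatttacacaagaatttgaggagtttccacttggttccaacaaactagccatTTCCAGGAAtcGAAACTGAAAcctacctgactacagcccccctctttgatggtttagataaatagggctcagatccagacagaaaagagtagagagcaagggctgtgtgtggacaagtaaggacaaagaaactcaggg
Cxcl9: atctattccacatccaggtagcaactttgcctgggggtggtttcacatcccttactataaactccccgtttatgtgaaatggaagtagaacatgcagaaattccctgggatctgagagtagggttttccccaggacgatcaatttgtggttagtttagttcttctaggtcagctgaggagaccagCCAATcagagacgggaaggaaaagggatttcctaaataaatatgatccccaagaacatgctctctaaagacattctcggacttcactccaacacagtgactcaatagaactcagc
H2-Oa: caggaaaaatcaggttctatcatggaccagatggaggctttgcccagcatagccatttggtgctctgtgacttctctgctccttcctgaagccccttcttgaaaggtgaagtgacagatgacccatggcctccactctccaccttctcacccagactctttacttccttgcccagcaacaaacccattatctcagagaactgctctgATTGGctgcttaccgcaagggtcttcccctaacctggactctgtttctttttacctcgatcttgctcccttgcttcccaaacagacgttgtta
Ccl8: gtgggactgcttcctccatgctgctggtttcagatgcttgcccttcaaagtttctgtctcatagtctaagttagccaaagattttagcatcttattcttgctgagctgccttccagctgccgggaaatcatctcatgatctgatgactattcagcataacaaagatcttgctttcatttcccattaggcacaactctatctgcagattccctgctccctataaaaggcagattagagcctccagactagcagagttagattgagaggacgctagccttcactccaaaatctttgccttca

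The Irf1 window holds a gamma-activated site match 90 bases before the start and a CCAAT box 63 bases before it, and a second Irf1 window of the table holds neither. The Tgtp1 window holds a gamma-activated site match 88 bases before the start and a response element core 77 bases before it. Cxcl9 and H2-Oa hold a CCAAT box on either strand and Ccl8 holds no match, which says only that these letters are absent from these 300 bases. Over all 32851 windows of the table, 8.3% hold TTCNNNGAA, 3.44% hold the response element core and 37.4% hold CCAAT. Windows were found for 12 genes of the interferon-gamma list, and 4 of their 15 windows hold TTCNNNGAA, beside 5 of 7 windows of immunity-related GTPases, 2 of 6 of guanylate-binding proteins, 1 of 11 of MHC class II, 0 of 7 of chemokines and 0 of 3 of the PD-1 list. For 5 guanylate-binding protein genes, 5 of 6 windows hold the response element core, beside 6 of 7 for immunity-related GTPases, 2 of 15 for the interferon-gamma list, 1 of 11 for class II and 1 of 7 for chemokines. For 10 MHC class II genes, 8 of 11 windows hold CCAAT, beside 7 of 15 for the interferon-gamma list and 2 of 7 for chemokines. A match is a description of sequence and was not tied to the values by any test.

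The defence GTPases, which attack intracellular pathogens and the vacuoles they live in, were higher after muDX400. All 8 immunity-related GTPases were higher without overlap between groups (median 1.24). Tgtp1 measured 142, 83.9, 23.0, 119.6 and 43.2 FPKM after muDX400, against 15.7, 12.5, 12.6, 14.4 and 19.3 FPKM in the controls (difference 2.13 ± 0.42, adjusted p = 0.0510 by limma). Irgm2 measured 146, 102, 50.7, 116 and 72.2 FPKM after muDX400 and 36.4, 39.5, 40.8, 41.9 and 42.1 FPKM in the controls, and Igtp measured 355, 259, 98.1, 278 and 164 FPKM after muDX400 and 76.0, 78.4, 75.6, 89.2 and 79.7 FPKM in the controls. In all of them tumour 1 was highest and tumour 3 lowest after muDX400, and the controls differed little. Of 11 guanylate-binding proteins, 10 were higher (median 1.08), 6 without overlap. Gbp2b measured 334, 225, 82.5, 246 and 121 FPKM after muDX400 and 62.6, 58.1, 54.6, 52.6 and 71.9 FPKM in the controls, and Gbp10 measured 37.0, 26.0, 10.7, 24.6 and 14.5 FPKM after muDX400 and 6.81, 8.72, 5.99, 8.16 and 8.07 FPKM in the controls. Gbp11, the remaining member and therefore shown, had an unadjusted p of 0.0749, at 9.54, 6.47, 3.04, 5.84 and 7.92 FPKM after muDX400 and 1.42, 8.96, 2.77, 5.26 and 1.04 FPKM in the controls. Tgtp1 and Tgtp2, and several Gbp genes, are close copies, so values of single members are uncertain. Past the adjusted threshold were all 8 immunity-related GTPases without muDX400 replicate 3 but 1 of 8 with the shared spread, and 10 of 11 guanylate-binding proteins without that library but 2 of 11 with the shared spread.

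MHC class II genes, which present peptides to CD4 T cells, were higher in 12 of 13 tested members (median 1.17). H2-Oa, a subunit of the peptide-exchange regulator H2-O, measured 3.54, 5.63, 2.10, 4.69 and 3.28 FPKM after muDX400, against 0.986, 1.89, 1.62, 1.04 and 0.971 FPKM in the controls. H2-Ob, its partner, measured 3.64, 6.47, 1.92, 5.57 and 3.10 FPKM after muDX400 and 0.991, 1.91, 1.62, 1.24 and 0.741 FPKM in the controls, and neither gene overlapped. The classical chains overlapped through tumour 3, with differences of 1.48 for H2-Ab1, 1.37 for H2-Aa and 1.53 for H2-Eb1. Isotype tumours 1 and 5 had the lowest class II level of all 10 tumours, at a mean log2(FPKM + 1) of 4.996 and 5.147 over the list, and isotype tumours 2, 3 and 4 lay between 5.72 and 6.01. H2-Ea-ps, annotated as a pseudogene in the reference and picked after its values were seen, measured 360.3, 451, 150.0, 388 and 258 FPKM after muDX400 and 58.5, 172, 153, 141 and 67.2 FPKM in the controls. Its median was 0 FPKM in the lines B16F10, LL2, MB49, MC38 and TC1, and whether the transcript is functional depends on the host strain, which the labels do not give. Ifi30, a lysosomal thiol reductase, differed by 0.06. In class II, 12 of 13 members passed the adjusted threshold without muDX400 replicate 3 and 1 of 13 with the shared spread.

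MHC class I presentation was higher in 11 of 17 members and lower in 3, by smaller amounts (median 0.40). The adjusted threshold was passed upward by 11 and downward by 2 without muDX400 replicate 3, and by 0 with the shared spread. Tap1, a subunit of the peptide transporter, measured 221, 206, 113, 224 and 155 FPKM after muDX400 and 98.1, 99.1, 99.7, 111 and 94.8 FPKM in the controls, and Tapbpl, a peptide-loading chaperone, measured 34.9, 31.2, 17.3, 31.0 and 24.5 FPKM after muDX400 and 15.2, 16.7, 15.0, 16.9 and 15.7 FPKM in the controls, both without overlap. The immunoproteasome subunit Psmb9, picked likewise, measured 247, 233, 160.1, 234 and 181 FPKM after muDX400, against 143, 148, 141, 159 and 139 FPKM in the controls. The members that were lower were Canx, Calr and Pdia3, general chaperones of the endoplasmic reticulum, at -0.28, -0.23 and -0.18. H2-K1 and H2-D1 vary between strains, and with the host strain not given their values are uncertain.

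**Figure D2:**
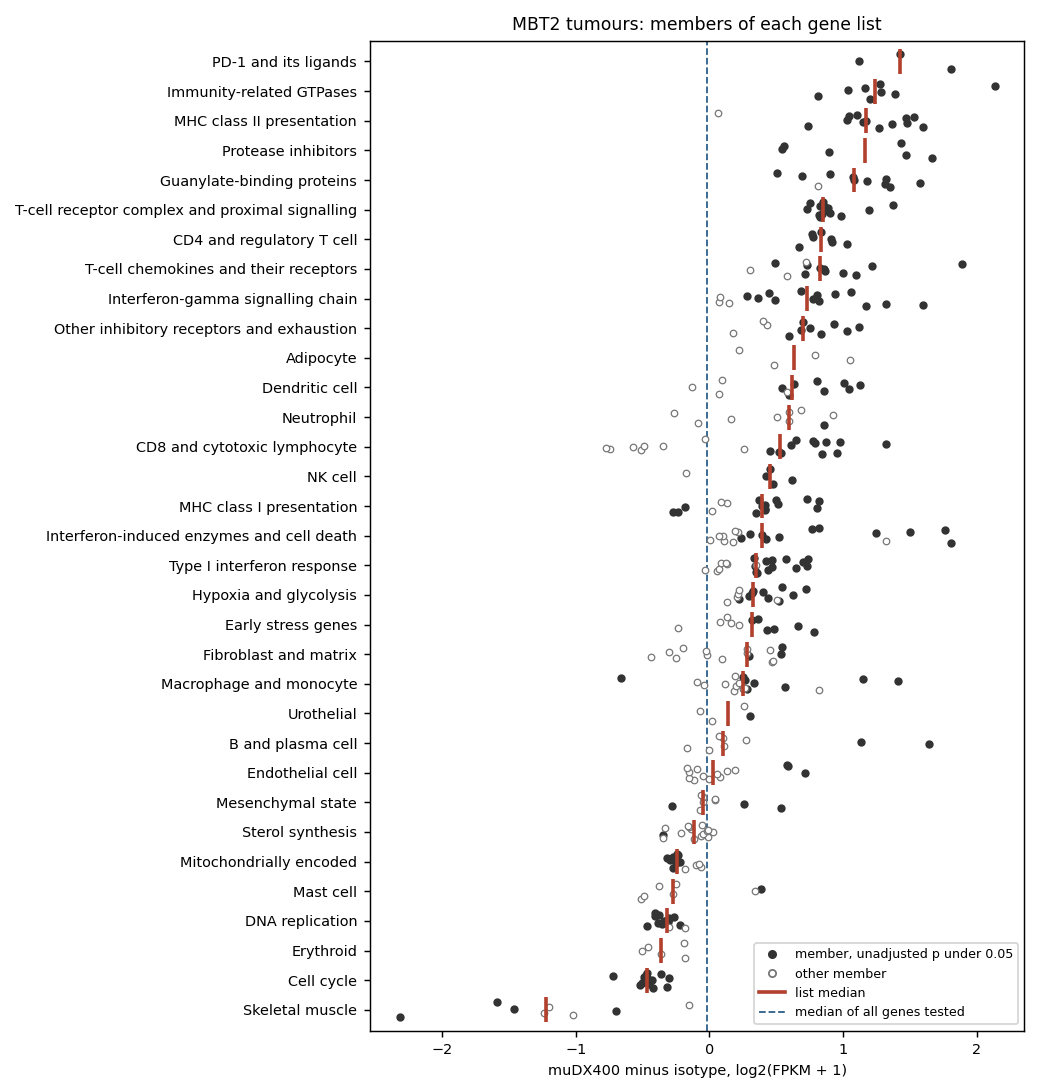
Difference between muDX400 and isotype MBT2 tumours on the log2(FPKM + 1) scale for every tested member of each list with at least 3 tested members, filled where the unadjusted p is under 0.05. Red bars are list medians, from 1.43 for PD-1 and its ligands to -1.22 for skeletal muscle, and the dashed line is the median of all genes tested, -0.02.

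Chemokines that attract T cells and their receptors were higher in 10 of 13 members (median 0.82), with 10 past the adjusted threshold without muDX400 replicate 3 and 3 with the shared spread. Cxcl9, a ligand of Cxcr3, measured 186, 163, 37.1, 144 and 76.1 FPKM after muDX400, against 27.7, 25.0, 19.9, 24.0 and 46.9 FPKM in the controls, with the largest difference of the list at 1.89 ± 0.40. Only muDX400 tumour 3 lay below the highest control, isotype tumour 5. Ccl8, a chemokine for monocytes and T cells, did not overlap, at 1161, 1325, 813, 1265 and 876 FPKM after muDX400 and 552, 738, 658, 494 and 527 FPKM in the controls. Cxcl11, another Cxcr3 ligand, measured 7.20, 5.31, 1.16, 6.33 and 3.15 FPKM after muDX400 and 0.965, 0.963, 1.22, 1.04 and 1.89 FPKM in the controls. The reference annotates Cxcl11 as a polymorphic pseudogene, and with the host strain not given it is uncertain whether its transcript is functional here. The receptor Cxcr6 and the ligand Ccl22 had p of 0.0775 and 0.114.

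Other interferon-induced genes stood among the largest differences without overlap. Ubd, a ubiquitin-like modifier, had the largest, 2.40 ± 0.44, at 29.2, 25.6, 3.80, 22.7 and 9.57 FPKM after muDX400 and 1.76, 1.53, 1.75, 2.08 and 2.95 FPKM in the controls (adjusted p = 0.0510 by limma). Il18bp, a soluble protein that binds interleukin 18, measured 84.5, 71.7, 26.0, 70.1 and 42.7 FPKM after muDX400, against 17.6, 21.5, 21.1, 17.6 and 15.6 FPKM in the controls. Calhm6, of a family of membrane channels, measured 51.3, 45.5, 12.97, 35.6 and 23.0 FPKM after muDX400 and 8.27, 10.7, 9.56, 10.4 and 8.16 FPKM in the controls. All 6 tested protease inhibitors were higher (median 1.16), as were 6 at an adjusted p under 0.05 without muDX400 replicate 3 and 2 with the shared spread. Among them were Serpina3f and Serpina3g, at 1.66 and 1.47. Serpina3f measured 17.4, 17.2, 4.98, 13.3 and 14.4 FPKM after muDX400 and 2.04, 4.24, 4.02, 3.21 and 3.13 FPKM in the controls, where muDX400 tumour 3 stood apart from the other muDX400 tumours. C3, the central complement protein, measured 88.3, 90.3, 30.8, 82.0 and 45.8 FPKM after muDX400 and 15.0, 26.2, 28.9, 20.5 and 21.8 FPKM in the controls, and Serping1, an inhibitor of the classical complement pathway, differed by 1.43. Neither gene overlapped.

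In a list of enzymes and cell-death genes, only some of them induced by interferon, 11 of 19 members were higher (median 0.39). Of these 19, 9 passed the adjusted threshold without muDX400 replicate 3 and 4 with the shared spread. Nos2, the inducible nitric oxide synthase of activated macrophages, measured 28.7, 19.5, 5.26, 31.6 and 8.28 FPKM after muDX400, against 3.82, 3.30, 4.71, 2.25 and 5.65 FPKM in the controls. Tnfsf10, the death ligand TRAIL, measured 6.41, 6.35, 2.67, 4.52 and 3.74 FPKM after muDX400 and 2.02, 2.82, 2.07, 2.40 and 2.07 FPKM in the controls. Acod1, which makes itaconate, differed by 1.81 ± 0.54, and Ido1, which degrades tryptophan, by 1.25 ± 0.40. The apoptosis genes Bax and Casp8 differed by 0.01 and 0.07, with p of 0.900 and 0.251. The type I interferon list was higher in 13 of 20 members (median 0.35) with a single member, Usp18, free of overlap. Of these 20, 11 passed the adjusted threshold without muDX400 replicate 3 and 0 with the shared spread. Usp18, a brake on type I interferon signalling, measured 22.0, 20.2, 13.3, 20.5 and 13.8 FPKM after muDX400 and 10.4, 11.1, 11.5, 11.8 and 12.7 FPKM in the controls. Ddx58 and Ifih1, sensors of viral RNA, differed by 0.06 and 0.07.

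Dendritic cell genes were higher in 8 of 12 tested members (median 0.61), with 8 past the adjusted threshold without muDX400 replicate 3 and 4 with the shared spread. Xcr1, a chemokine receptor of cross-presenting dendritic cells, measured 6.33, 8.06, 4.76, 5.08 and 6.18 FPKM after muDX400, against 2.25, 4.58, 2.84, 3.22 and 2.46 FPKM in the controls, without overlap. Clec9a, a receptor for dead cells on the same cells, measured 4.78, 7.98, 3.28, 4.98 and 5.85 FPKM after muDX400 and 1.31, 3.76, 2.55, 1.81 and 1.26 FPKM in the controls. Itgax, which encodes CD11c, measured 8.05, 8.90, 3.22, 9.37 and 4.28 FPKM after muDX400 and 2.23, 2.93, 1.97, 3.06 and 3.14 FPKM in the controls, without overlap. Fscn1 and Zbtb46 differed by -0.13 and 0.09.

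Macrophage and monocyte genes were mixed, with 7 of 18 members higher and 1 lower (median 0.25). Without muDX400 replicate 3, 4 passed the adjusted threshold upward and 1 downward, and with the shared spread 1 upward. Ly6c2, a marker of inflammatory monocytes, measured 69.0, 42.1, 11.6, 34.6 and 25.6 FPKM after muDX400, against 10.1, 9.89, 10.9, 10.3 and 15.6 FPKM in the controls. Mrc1, the mannose receptor CD206 of tissue macrophages, ran the other way, at 54.0, 64.9, 111, 50.6 and 83.0 FPKM after muDX400 and 131, 121, 110.2, 103 and 92.1 FPKM in the controls, with only muDX400 tumour 3 inside the isotype range. General macrophage genes differed little, by 0.18 for Adgre1 (0.209 unadjusted), 0.22 for Csf1r (0.289) and 0.12 for Cd68 (0.212). Of 5 tested natural killer cell genes 4 were higher, but Cd226, one of them, reached 1 FPKM in muDX400 tumours alone and so entered the test only through the group where it is high. Of 9 tested neutrophil genes 1 was higher (Csf3r, 0.86) and of 8 tested B and plasma cell genes 2 were higher. Those were Jchain at 1.13 and Igkc at 1.64, products of plasma cells. Of 15 fibroblast genes 3 were higher, and of 14 endothelial genes 3, namely Vwf, a clotting protein of endothelium, and Icam1 and Vcam1, adhesion molecules that cytokines also induce in other cells. In these lists the adjusted threshold was passed without muDX400 replicate 3 by 3 natural killer cell, 1 neutrophil, 2 B and plasma cell, 1 fibroblast and 3 endothelial genes, and by 0 of each with the shared spread. The endothelial genes Pecam1 and Cdh5 differed by 0.13 and -0.12.

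**Figure D3:**
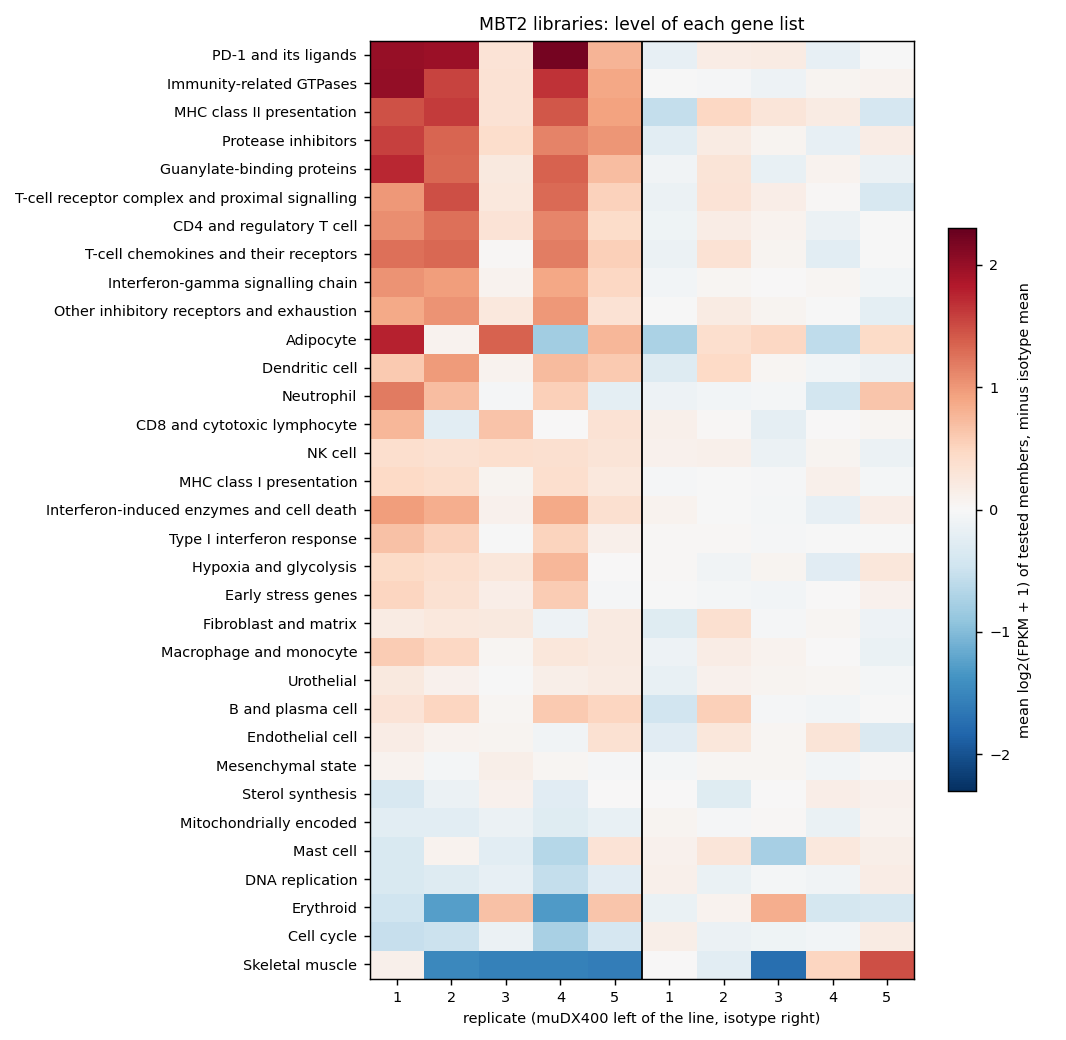
Level of each list in the 10 MBT2 libraries, as the mean log2(FPKM + 1) of its tested members minus the mean of the 5 isotype libraries, with muDX400 left of the line. In muDX400 tumours 1, 2 and 4 the immunity-related GTPase list stands at 7.46, 6.99 and 7.10, against 5.77 in tumour 3 and 6.32 in tumour 5 and 5.33 to 5.52 in isotype tumours.

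Genes of cell division were lower after muDX400. All 15 members of the cell cycle list were lower (median -0.46), 7 of them without overlap, beside 15.0% of all genes lower and 3.52% wholly below. Tpx2, which assembles the spindle, measured 33.3, 33.4, 41.97, 28.3 and 35.1 FPKM after muDX400, against 51.4, 42.9, 45.9, 46.4 and 52.7 FPKM in the controls. Ccnb1, a mitotic cyclin, measured 30.6, 31.6, 38.0, 29.0 and 35.7 FPKM after muDX400 and 50.5, 41.0, 42.8, 43.2 and 56.8 FPKM in the controls, and Birc5, a subunit of the chromosomal passenger complex, measured 70.9, 67.9, 84.1, 55.8 and 78.6 FPKM after muDX400 and 104, 94.0, 95.7, 96.5 and 122 FPKM in the controls. Tumour 3 was the highest muDX400 tumour in each of them, and tumour 4 the lowest. Mki67, a proliferation marker picked after its values were seen, had the largest difference of the list, -0.72 ± 0.19, at 19.8, 17.7, 34.6, 14.8 and 18.2 FPKM after muDX400 and 40.5, 32.1, 31.8, 29.3 and 36.9 FPKM in the controls. Tumour 3 lay within the isotype range for Mki67, and the other 4 lay well below it. Past the adjusted threshold were 15 of 15 without muDX400 replicate 3 but 2 of 15 with the shared spread.

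DNA replication genes were lower in 13 of 15 members (median -0.32), 9 of them without overlap. Rrm1, a subunit of ribonucleotide reductase, measured 30.9, 30.6, 32.8, 26.7 and 31.0 FPKM after muDX400, against 41.4, 37.0, 37.9, 40.01 and 47.6 FPKM in the controls. Cdc6, which loads the replicative helicase, measured 7.67, 8.10, 8.72, 5.99 and 7.32 FPKM after muDX400 and 11.3, 9.65, 10.7, 10.3 and 12.02 FPKM in the controls, and the helicase subunit Mcm6 measured 50.3, 55.3, 57.9, 47.3 and 59.2 FPKM after muDX400 and 71.0, 61.5, 63.5, 65.6 and 72.8 FPKM in the controls. The groups were separate in these, by a small margin. Ccne1 and Ccne2, cyclins of the entry into replication, had p of 0.0747 and 0.145. Of the 12 promoter windows found for cell cycle genes, 11 hold CCAAT and 9 hold TTTGAA, the core of the cell-cycle homology region. Of the 13 windows of replication genes, 9 hold CCAAT and 1 holds TTTGAA, and the shares over all windows are 37.4% and 17.9%. Of the 15 replication genes, 10 passed the adjusted threshold without muDX400 replicate 3 and 1 with the shared spread.

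Histone genes made up 3 of the 4 largest negative differences without overlap. Hist1h3i measured 0.475, 1.504, 2.45, 0.0819 and 1.72 FPKM after muDX400, against 6.13, 2.74, 4.34, 5.39 and 2.69 FPKM in the controls (difference -1.30 ± 0.31, adjusted p = 0.0526 by limma). Hist1h3c measured 2.47, 2.74, 2.11, 1.49 and 3.97 FPKM after muDX400 and 6.29, 5.36, 6.66, 4.60 and 5.20 FPKM in the controls, and Hist1h2ae measured 1.44, 2.92, 4.89, 1.78 and 3.25 FPKM after muDX400 and 7.46, 5.22, 5.37, 6.12 and 5.43 FPKM in the controls. Over all 23 histone cluster genes tested, a list put together after these values were seen, 10 were lower and 1, Hist2h2aa2, was higher, at 0.96. The adjusted threshold was passed downward by 7 without muDX400 replicate 3 and by 8 with the shared spread. Histone genes are near copies of each other, and the division of fragments among them is uncertain.

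**Figure D4:**
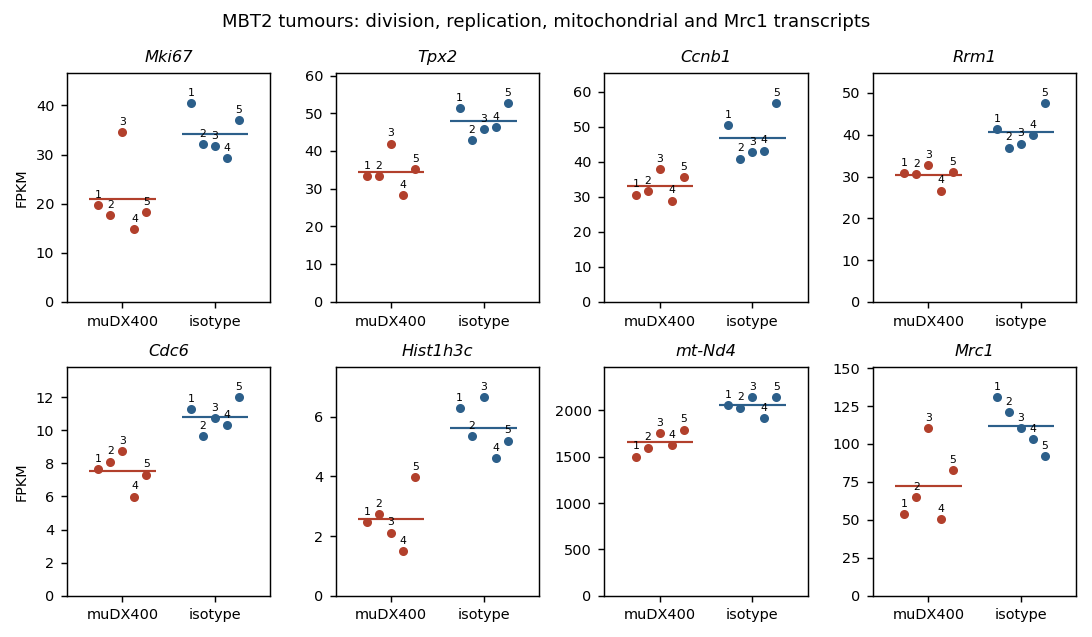
FPKM of 8 genes in each MBT2 tumour, muDX400 left and isotype right, on axes that start at 0, with replicate numbers and group means. Rrm1 and Cdc6 are separate between groups, and for Mki67 and Mrc1 muDX400 tumour 3, at 34.6 and 111 FPKM, lies among the isotype tumours.

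Other genes with large negative differences and no overlap were of several kinds. Pf4, a chemokine of platelets and some macrophages, measured 33.4, 21.5, 44.4, 17.5 and 42.6 FPKM after muDX400, against 54.0, 63.8, 55.1, 51.4 and 63.1 FPKM in the controls. Slc40a1, the iron exporter ferroportin, measured 3.72, 1.56, 3.501, 1.57 and 1.83 FPKM after muDX400 and 5.98, 4.62, 4.25, 3.96 and 5.84 FPKM in the controls. Ptprg, a receptor-type tyrosine phosphatase, differed by -0.59 and Peg10, an imprinted gene, by -0.56. Lmnb1, Kif23, Hmgb3 and Pclaf, which encode a nuclear lamin, a kinesin of cell separation, a chromatin protein and a PCNA-binding factor, differed by -0.59, -0.58, -0.58 and -0.56. S100a14 was low in all tumours, at 1.73, 1.22, 1.75, 0.862 and 1.98 FPKM after muDX400 and 2.49, 2.64, 2.96, 2.66 and 2.63 FPKM in the controls. Of 13 mitochondrially encoded genes, 9 were lower (median -0.24), with 6 past the adjusted threshold without muDX400 replicate 3 and 0 with the shared spread. The clearest was mt-Nd4, a subunit of respiratory complex I, at 1502, 1599, 1752, 1626 and 1792 FPKM after muDX400 and 2059, 2031, 2145, 1921 and 2146 FPKM in the controls.

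Glycolysis and hypoxia genes were higher in 10 of 15 members (median 0.33). Pfkp, a phosphofructokinase, measured 54.5, 51.9, 42.2, 59.2 and 44.3 FPKM after muDX400, against 37.7, 35.6, 37.2, 36.2 and 41.8 FPKM in the controls, without overlap. Hk2, a hexokinase, measured 20.4, 18.1, 11.6, 20.8 and 11.4 FPKM after muDX400 and 10.5, 8.25, 10.2, 8.09 and 13.9 FPKM in the controls, and Vegfa, a growth factor for vessels, measured 119.8, 120.3, 97.0, 179 and 77.1 FPKM after muDX400 and 76.4, 78.2, 84.2, 72.9 and 78.5 FPKM in the controls. Tumour 4 was the highest for both. Tumour 5 lay within the controls for both, and tumour 3 for Hk2. Of the 15 members, 4 passed the adjusted threshold without muDX400 replicate 3 and 0 with the shared spread. Early stress genes were higher in 6 of 11 members, among them Fosb (0.66) and Egr1 (0.48), and the level of this list was 4.34 to 4.96 in muDX400 tumours and 4.32 to 4.47 in isotype tumours. Past the adjusted threshold were 5 stress genes without muDX400 replicate 3 and 0 with the shared spread, and their part in the other results was not tested. Sterol synthesis was lower in 1 of 15 members, and at the adjusted threshold in 1 without muDX400 replicate 3 and in 0 with the shared spread. Skeletal muscle genes were lower in 4 of 8 tested members and in 0 at an adjusted p under 0.05 in either alternative, with a summed level of 5.998 to 39.9 FPKM in muDX400 tumours and 4.17 to 127 FPKM in isotype tumours, and Acta1, muscle actin, measured 11.2, 0.787, 0.435, 0.448 and 0.316 FPKM after muDX400 and 13.8, 9.44, 0.208, 22.5 and 41.0 FPKM in the controls. The muscle signal was raised in muDX400 tumour 1 and in isotype tumours 1, 2, 4 and 5, and low in the rest, and its part in the other results was not tested.

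Whether the response in MBT2 differed from that in other lines was tested as the difference of the muDX400 effects in a model of the 110 libraries taken at 8 days. Against MC38, a colon carcinoma line of the same High class, 919 of 16187 genes differed (5.68%) at an adjusted p under 0.05 in limma. Of these, 348 had a higher MBT2 effect (2.15%) and 571 a lower one (3.53%). With quantile normalisation the split was 511 and 550. Cytotoxic genes had a lower effect in MBT2 for 14 of 20 tested members. Gzmb, picked after its values were seen, measured 40.2, 42.1, 45.6, 38.5 and 21.7 FPKM in MC38 muDX400 tumours and 6.19, 5.19, 4.88, 6.73 and 1.52 FPKM in MC38 isotype tumours. The effects were 0.26 in MBT2 and 2.77 in MC38, and their difference was -2.51 ± 0.53 (SE, adjusted p = 0.000960 by limma). Cd8a had effects of 0.84 in MBT2 and 2.72 in MC38, a difference of -1.87 ± 0.50 (adjusted p = 0.0113 by limma). MC38 isotype tumours held 3.81, 2.29, 2.94, 5.11 and 1.80 FPKM of Cd8a, all below the lowest MBT2 isotype tumour.

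Endothelial genes had a lower effect in MBT2 than in MC38 for 8 of 15 members and mast cell genes for 5 of 7, among them Pecam1 (-1.31, adjusted p = 0.00166 by limma) and Cpa3, a mast cell protease (-2.55, adjusted p = 0.000126). No member of the interferon-gamma chain, the guanylate-binding proteins, the immunity-related GTPases or MHC class II passed in either direction, which does not show that their effects were equal. Their median differences of effects were -0.36, -0.78, -0.37 and -0.24. Sterol synthesis had a higher effect in MBT2 for 10 of 15 members. Msmo1, a sterol oxidase, had effects of -0.01 in MBT2 and -1.30 in MC38. Slc2a1, the glucose transporter GLUT1 and likewise picked after its values were seen, had effects of 0.72 in MBT2 and -0.77 in MC38 (adjusted p = 0.000871 by limma for the difference). Slc2a1 measured 59.1, 52.1, 41.1, 80.2 and 32.7 FPKM in MBT2 muDX400 tumours and 34.7, 25.3, 31.6, 19.6 and 46.7 FPKM in MBT2 isotype tumours.

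The largest lower effects in MBT2 against MC38 were those of Mup18, a major urinary protein (-3.61), Thrsp, a regulator of fat synthesis (-3.41 ± 1.02), and Clec3b, tetranectin (-2.78 ± 0.77). Tpsb2 and Mcpt2, mast cell proteases, and Ogn, a matrix proteoglycan, followed at -2.71 ± 0.57, -2.59 ± 0.43 and -2.64 ± 0.53. In MBT2 itself Mup18 stayed under 1 FPKM in all 10 tumours, and its effect was 3.62 in MC38. The largest higher effects were those of the gene models Gm6158 and Gm38226 and of S100a8, Bglap, Bglap2 and Cxcl1, from 1.69 to 2.69. Gm38226 had effects of 0.001 in MBT2 and -2.56 in MC38. MC38 isotype replicate 3 was the highest MC38 tumour for Gm6158 and Gm38226, at 30.9 and 504 FPKM. It also stood apart for Gm29216, at 206 FPKM beside 40.3 to 64.1 FPKM in the other MC38 isotype tumours. No fit left that library out, so its part in the counts against MC38 was not tested. Cxcl1, a neutrophil attractant, had effects of -0.09 in MBT2 and -1.77 in MC38.

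**Figure D5:**
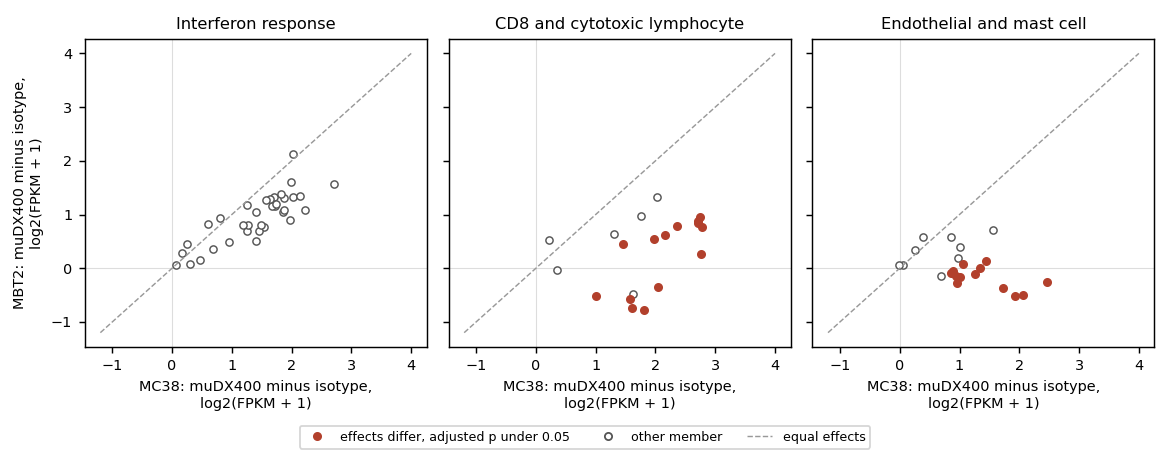
muDX400 effect (log2(FPKM + 1)) in MBT2 against that in MC38 for members of the interferon, cytotoxic, endothelial and mast cell lists, filled where the effects differ at an adjusted p under 0.05. No interferon-list member is filled, while 14 cytotoxic, 8 endothelial and 5 mast cell members are, all below the line of equal effects.

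Against CM3, the other line of the High class, 817 genes had a higher MBT2 effect (5.05%) and 1285 a lower one (7.94%), but these counts rest on CM3 isotype replicates 2 and 3, which stood far from the other CM3 libraries. Gm29216 measured 78.0, 151, 105, 83.0 and 80.4 FPKM in CM3 muDX400 tumours and 95.6, 7252, 8615, 107 and 75.5 FPKM in CM3 isotype tumours. Gm37917 measured 1362, 1249.9, 1322, 1669.9 and 1533 FPKM in CM3 muDX400 tumours and 1583, 14.8, 8.22, 1181 and 1831 FPKM in CM3 isotype tumours. In both genes CM3 isotype replicates 2 and 3 alone departed from the rest. With those libraries left out, a choice made after seeing the data, 44 genes had a higher MBT2 effect and 47 a lower one, and the Gm29216 difference of 2.52 turned to -0.043. Of the 6 largest differences each way, those of Bglap and Bglap2, at 1.91 and 2.23, then kept an adjusted p under 0.05 in limma, though neither gene exceeded 4.69 FPKM in any other line. Those of Gm37375, Gm43798, Gm29216, Gm37917, Igkv1-117, Gm37758, Gm49339, Gm38194 and Gm42959 did not, and Rpgrip1 no longer passed the filter.

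Against the mean effect of the other 10 lines, 32 genes had a higher MBT2 effect (0.198%) and 21 a lower one (0.13%), and without MBT2 muDX400 replicate 3 these were 81 and 47. Bglap2, one of the osteocalcin genes, had a difference of effects of 2.02, at 17.9, 13.2, 1.19, 15.4 and 1.04 FPKM in MBT2 muDX400 tumours and 0.695, 1.13, 1.64, 0.227 and 0.724 FPKM in MBT2 isotype tumours. Its neighbour Bglap followed the same tumours, at 17.0, 7.97, 1.91, 9.49 and 1.72 FPKM after muDX400 and 0.866, 0.929, 1.98, 0.541 and 1.19 FPKM in the controls. Among MBT2 tumours both genes were high in muDX400 tumours 1, 2 and 4 alone, and as near copies they are uncertain as single genes. In the other lines Bglap2 had a median of 0.105 FPKM and a highest value of 2.44 FPKM, and Bglap a median of 0 and a highest value of 4.69 FPKM, so the values there describe near absence and give no test of a response. Ubd differed by 1.73 ± 0.39, with effects in the other lines from 0.07 to 1.42. Its starting level was unlike: isotype tumours held 1.53 to 2.95 FPKM in MBT2 and 7.55 to 20.3 FPKM in MC38. After muDX400 it measured 3.80 to 29.2 FPKM in MBT2 and 29.8 to 39.6 FPKM in MC38. Bcl2l14, of the Bcl-2 family, Slc4a11, a membrane transporter, and AC133103.1 differed by 1.09, 1.12 and 1.14. Their effects were 1.27, 1.285 and 1.13 in MBT2, beside 0.96, 0.79 and -0.05 in MC38. Il12b, a subunit of interleukin 12 picked after its values were seen, measured 5.37, 7.03, 1.51, 6.05 and 3.24 FPKM in MBT2 muDX400 tumours and 0.732, 3.11, 1.89, 0.741 and 1.14 FPKM in MBT2 isotype tumours, and differed by 1.00 ± 0.20 (adjusted p = 0.00119 by limma). Its effect was 1.13 in MBT2 and 0.94 in MC38, a difference of 0.19 ± 0.26 (adjusted p = 0.781 by limma). In the other lines Il12b had a median of 0.251 FPKM and a highest value of 2.84 FPKM. Cd160 differed by 0.71 (adjusted p = 0.00661 by limma).

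Lower MBT2 effects against the other lines were those of Mest, an imprinted gene (-1.55 ± 0.33), Csrp3, a muscle protein (-1.09 ± 0.25), Omd, a bone matrix protein (-1.04 ± 0.23), and Hist1h2bj (-0.9991 ± 0.23). Csrp3 was low in MBT2, at 0.254, 0, 0, 0 and 0 FPKM after muDX400 and 1.00, 0.568, 0, 2.02 and 2.42 FPKM in the controls. Among MBT2 tumours it was detected only where the muscle signal was raised. Its median in the other lines was 0 FPKM, but it was not absent from all of them. It measured 6.15 to 10.2 FPKM in CM3 muDX400 tumours and 2.88 to 13.6 FPKM in CM3 isotype tumours. Mest measured 3.51, 3.01, 14.4, 2.38 and 11.3 FPKM in MBT2 muDX400 tumours, against 16.2, 17.7, 9.96, 21.8 and 11.2 FPKM in MBT2 isotype tumours, with muDX400 tumours 3 and 5 among the controls. Omd was likewise within the control range in tumours 3 and 5, at 1.93, 4.59, 9.31, 1.63 and 10.3 FPKM after muDX400 and 13.6, 16.6, 6.82, 13.9 and 5.56 FPKM in the controls. In the other lines Omd had a median of 0.115 FPKM and a highest value of 9.03 FPKM, so its difference mostly describes MBT2. Gm14692 measured under 0.001, 4.85, 5.91, 2.45 and under 0.001 FPKM in MBT2 muDX400 tumours and 3.95, 7.22, 8.59, 6.96 and 7.48 FPKM in MBT2 isotype tumours, and exceeded 0.0262 FPKM in no library of the other lines at 8 days, so that its difference of -1.51 describes MBT2 alone. Hist1h3i, with a difference of -1.33, had a median of 0.274 FPKM and a highest value of 1.66 FPKM in the other lines. Among the lists, cell cycle members differed from the mean of the other lines in 0 of 15 genes in this contrast and DNA replication members in 0 of 15, and histone cluster genes had a lower effect in 6 of 33.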

How the data were processed

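The authors deposited a single table of FPKM for 54232 gene identifiers in 143 libraries, matched to samples by the numbers in the labels' descriptions. The labels name neither aligner, quantifier nor build, so these count as not given in the sources used here. Symbols and coordinates came from GENCODE vM21 (GRCm38), which holds 54165 of the identifiers. Libraries were stranded and ribosome-depleted, per the labels' protocols. Depth was estimated from the FPKM worth of single fragments and transcript lengths.

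Values were tested as log2(FPKM + 1) by limma (version 3.58.1, R 4.3.3), fitting an intensity trend, 2-sided and Benjamini-Hochberg adjusted, with a threshold of 0.05, on genes with FPKM of at least 1 in at least 5 of the 10 libraries. Contrasts with other lines used 110 libraries and 16187 genes. The fits were tested on simulated data. Exact permutation tests used SciPy 1.17.1. Alternatives were another pseudocount (0.1), no filter, 2 scalings, leaving out each library, the replicate block, a shared spread and array weights. Leaving out CM3 isotype replicates 2 and 3 was added after seeing the data.

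Members and lists were chosen with earlier results of these data known. Named genes are Pdcd1, Cd274 and Cd8a, the 12 largest positive and negative differences at an unadjusted p under 0.05 without overlap, list members (values per tumour for up to 4 of smallest p), and the 6 largest differences each way per contrast. A gene shown outside this rule is named as picked after its values were seen. Some genes are not reported here.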

Additional observations from a re-analysis of the deposited data

Results flagged for a closer look

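Serpina3f in muDX400 replicate 3, at 4.98 FPKM, and Lmnb1 in isotype replicate 2, at 70.8 FPKM, lay far from the other tumours of their group. They are 2 of 70 gene and group pairs examined, and chance alone marks about 1 in 20. The number of genes at 1 FPKM or more was also far from the other controls in isotype replicate 2, at 12588.

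The muDX400 effect in MBT2 differed from that in MC38 at an adjusted p under 0.05 (limma) in 919 genes, from that in CM3 in 2102 and from the mean of the other 10 lines in 53. The count against CM3 was 91 without CM3 isotype replicates 2 and 3. Against MC38 the largest higher effects were those of Gm6158 at 2.69, Gm38226 at 2.56, S100a8 at 1.86, Bglap at 1.80, Bglap2 at 1.69 and Cxcl1 at 1.69. The effect of Gm38226 in MBT2 itself was 0.001, and MC38 isotype replicate 3 was the highest MC38 tumour for Gm6158 and Gm38226. The largest lower effects were those of Mup18 at -3.61, Thrsp at -3.41, Clec3b at -2.78, Tpsb2 at -2.71, Ogn at -2.64 and Mcpt2 at -2.59. Against the other lines, the higher effects were those of Bglap2 at 2.02, Bglap at 1.75, Ubd at 1.73, AC133103.1 at 1.14, Slc4a11 at 1.12 and Bcl2l14 at 1.09. The lower effects were those of Mest at -1.55, Gm14692 at -1.51, Hist1h3i at -1.33, Csrp3 at -1.09, Omd at -1.04 and Hist1h2bj at -0.9991. Bglap, Bglap2, Gm14692, Hist1h3i and Omd were near 0 FPKM in most libraries of the other lines, so their values mostly describe MBT2. Csrp3 had a median of 0 FPKM in the other lines, where its highest value was 13.6 FPKM in a CM3 isotype tumour. It did not exceed 2.42 FPKM in the MBT2 tumours compared.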

How the results depend on the processing

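The count of genes at an adjusted p under 0.05 between muDX400 and isotype tumours, 0 of 12541, was 3504 with array weights, 222 with a spread shared over the 8-day libraries and 1 without the filter. Leaving out 1 library gave 0 to 2595, with 2595 without muDX400 replicate 3 and 478 without muDX400 replicate 5. Array weights gave muDX400 replicate 3 the lowest weight, 0.399, and 2356 genes were called both there and without that library. At an unadjusted p under 0.05, 942 genes were higher and 553 lower with the shared spread, 2873 were lower with array weights, and leaving out 1 library gave 1245 to 2428 lower, 1245 of them without muDX400 replicate 4. Against the mean of the other 10 lines, 53 genes became 214 without the filter, 22 with the smaller pseudocount (18 higher, 4 lower) and 28 to 128 without 1 library. The Gzmd difference of -0.78 was -1.38 to 0.024 with 1 library left out, the highest value, 0.024, without muDX400 replicate 2, and the cause was not tested. Leaving out CM3 isotype replicates 2 and 3, chosen after seeing the data, gave 91 genes against CM3, where the full set gave 2102, and turned the Gm29216 difference of 2.52 to -0.043. It gave 1297 genes against MC38 and 70 against the other lines. The count of 222 with the shared spread was not repeated without those libraries. Over 171 named gene results, 3458 values kept direction and side of the threshold, 376 newly passed it, 122 no longer did and 2 reversed direction.

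Tumours of the same replicate number share only that number. Deviations of same-numbered tumours correlated at 0.036, 0.113, -0.05, -0.218 and -0.375, and 1 of 5 matched its own number best. With the replicate block, 0 genes passed at an adjusted p under 0.05 (1495 higher and 1469 lower unadjusted), and the contrasts gave 798 genes against MC38, 2072 against CM3 and 44 against the other lines. Single values near 1 FPKM rest on few fragments.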
